A study of Mus musculus with 16 samples.

Results

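The 10 genes described here encode proteins of autophagy and of its mitochondrial branch, mitophagy: *Ulk1*, *Pink1*, *Map1lc3a*, *Map1lc3b*, *Gabarapl1*, *Sqstm1*, *Optn*, *Tax1bp1*, *Bnip3l* and *Fundc1*. They were taken by symbol from the TPM table and by the same Ensembl identifier from the count table, and they are 10 of the 54393 genes of the count table. The rule uses no measured value, but the 10 genes were chosen with earlier results of these data known. All 10 passed the filter on low counts.

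Autophagy encloses cytoplasm in a double membrane and delivers it to lysosomes. The ULK1 kinase starts the process, proteins of the LC3 and GABARAP families are coupled to lipid on the growing membrane, and receptors tie cargo to them. In mitophagy the cargo is a mitochondrion, marked either by the kinase PINK1 and ubiquitin, which SQSTM1, OPTN and TAX1BP1 can bind, or by receptors that sit in the outer mitochondrial membrane, such as BNIP3L (also called NIX) and FUNDC1. Transcript levels do not measure the flux through these pathways.

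The cells were mIMCD3, a line from the inner medullary collecting duct of an SV40 transgenic mouse, labelled wild type for genotype. All cultures stood on permeable filters for 10 days and then received doxycycline (DOX) at 2 µg/mL or the vehicle DMSO, renewed daily, for 3 or 6 days. DOX is a tetracycline antibiotic that also inhibits the ribosomes of mitochondria. Each of the 4 groups (DMSO 3 days, DOX 3 days, DMSO 6 days and DOX 6 days) had 4 libraries of poly(A) RNA, and since it is a single line with no stated separate origin of the cultures, the p-values measure only the spread between these libraries.

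The libraries held 16933343 to 23960860 counts, so that 3 counts correspond to between 0.125 and 0.177 CPM (counts scaled to a common library size). Within groups, log2 CPM of single libraries correlated at 0.981 to 0.992 across genes. Replicate 1 of DOX at 3 days differed from the other replicates of its group in its trend with transcript length. Its log2 CPM rose by 0.022 per doubling of transcript length relative to the average library. In replicates 2, 3 and 4 the log2 CPM fell by 0.077, 0.063 and 0.079. In the libraries of the other groups this trend ran from -0.040 to 0.063. Replicate 1 thus lay within their range, and replicates 2, 3 and 4 lay below it. Fits without replicate 1 keep only replicates 2, 3 and 4 of the group. Results at 3 days that rest on replicate 1 of DOX are given with and without it. The widest trends with GC content were at 6 days. Per 10% of GC, log2 CPM changed by 0.157 and -0.146 in replicates 1 and 4 of DMSO at 6 days. In replicates 3 and 4 of DOX at 6 days it changed by 0.112 and 0.138. The other libraries ran from -0.076 to 0.029. Of the 10 collecting duct markers, 3 were high enough to be tested, and *Aqp2*, the vasopressin-regulated water channel, was at 0.184 ± 0.141 TPM (an abundance corrected for transcript length; SD, n = 8 DMSO libraries). The 10 together summed to 6.93 to 10.2 TPM in DMSO and 3.12 to 5.08 TPM in DOX, and edgeR's glmTreat, a test for changes over 1.2-fold, called 2 of the 3 tested lower at 3 days and all 3 at 6 days, with *Scnn1a*, a sodium channel subunit, at -1.05 and -1.48 on the log2 scale. The 6 epithelial markers were all tested and summed to 2125 to 2586 TPM in DMSO and 1570 to 1820 TPM in DOX, where 2 were called lower at 3 days and 3 at 6 days, with *Krt8*, a keratin, at -0.48 and -0.75. Of the 6 macrophage markers, *Cd14*, *Cd68* and *Csf1r* were lower with DOX, and the 6 together summed to 47.0 to 54.7 TPM in DMSO and 19.5 to 27.2 TPM in DOX. *Ptprc*, the pan-leukocyte marker, was at 0.218 ± 0.0912 TPM and *Adgre1* at 0.00225 ± 0.00636 TPM in DMSO. The 7 fibroblast markers summed to at most 1.15 TPM and none was tested. The part of these shifts in the results was not tested, and in such bulk samples fewer cells of a type and less RNA per cell cannot be told apart.

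In vehicle-treated cells the mitochondrial receptor *Bnip3l* and the ubiquitin-binding receptor *Sqstm1* were the most abundant of the 10 genes. On the length-corrected TPM scale *Bnip3l* had 436 ± 43.2 TPM (SD, n = 8 DMSO libraries), rank 292 of the 53354 genes of the TPM table, and *Sqstm1* had 339 ± 42.1 TPM, rank 356. *Map1lc3b* with 107 ± 9.29 TPM and *Tax1bp1* with 107 ± 10.3 TPM followed. *Gabarapl1* had 48.7 ± 4.98 TPM and *Map1lc3a* 45.8 ± 3.29 TPM. These were followed by *Optn* at 28.9 ± 1.33 TPM, *Fundc1* at 21.8 ± 1.81 TPM and *Ulk1* at 18.7 ± 2.96 TPM. *Pink1* was lowest, at 8.56 ± 0.755 TPM and rank 8541, with 235 to 394 counts per library. The ranges of the neighbours *Bnip3l* and *Sqstm1* overlapped, as did those of *Map1lc3b* and *Tax1bp1*, of *Gabarapl1* and *Map1lc3a*, and of *Fundc1* and *Ulk1*. The ranges of the remaining neighbours in this order did not overlap. Within single libraries *Bnip3l* was above *Sqstm1* in 8 of 8, and *Map1lc3b* above *Tax1bp1* in 5 of 8. *Gabarapl1* was above *Map1lc3a*, and *Fundc1* above *Ulk1*, in 7 of 8 each.

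No member passed the test between the times in vehicle. Between DMSO at 6 and at 3 days, edgeR's glmTreat, which asks whether a change exceeds 1.2-fold, called 0 of the 10 genes and 0.00% of the 13234 tested genes at a Benjamini-Hochberg adjusted p under 0.05. None of the 10 had an unadjusted p under 0.05, against 172 of the 13234 tested genes. DESeq2 and limma on log2(TPM + 1) called 0 of the 10 as well. The log2 fold changes ran from -0.13 to 0.20, and the 95% interval lay within 1.2-fold in either direction for 7 of the 10 genes. Without the fold threshold 0 of the 10 were called (background 0.468%). The groups did not overlap for 2 of them, *Tax1bp1* and *Bnip3l*, both higher at 6 days, against 12.2% of all tested genes.

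With DOX for 3 days no member passed the test, and after 6 days *Sqstm1* was higher and *Bnip3l* lower. At 3 days 0 of the 10 genes were called, where the background was 12.5% of all tested genes, and their median log2 fold change was 0.01 against 0.00 over all tested genes. One gene, *Ulk1*, had an unadjusted p under 0.05 by glmTreat, against 2867 of the 13234 tested genes. DESeq2 and limma on log2(TPM + 1) called 0 of the 10. In the edgeR fit of all 16 libraries, without correction for length, the 95% interval lay within 1.2-fold for 7 of the 10 genes. Intervals were not computed for the other fits. The 2 groups did not overlap for 4 genes, against 38.6% of all tested genes. At 6 days 2 of the 10 were called, where the background was 21.6% (10.0% higher and 11.6% lower), with a median log2 fold change of -0.12 against 0.00 over all tested genes. The groups did not overlap for 6 genes, against 43.0% of all tested genes. Without the fold threshold edgeR called 4 of the 10 genes at 3 days (background 45.2%) and 6 at 6 days (background 50.6%). At 6 days the members' shares were near those of all genes.

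**Figure D1:**
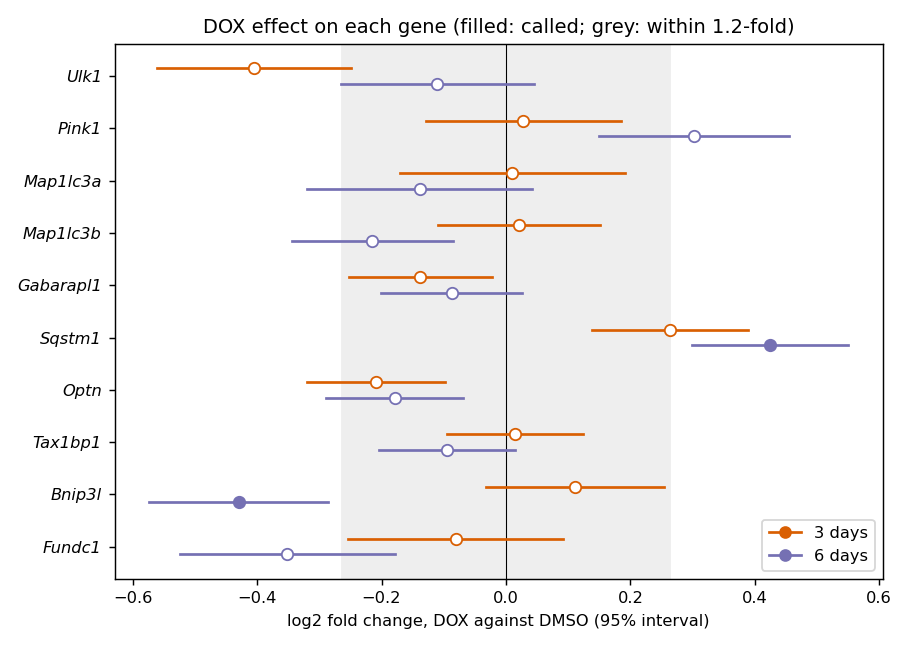
Log2 fold change of DOX against DMSO (x axis, edgeR) for each of the 10 genes (y axis) after 3 days (orange) and 6 days (violet), with 95% intervals (n = 4 libraries a group). Filled points passed glmTreat, and the grey band spans 1.2-fold in either direction. Only *Sqstm1* at 0.42 and *Bnip3l* at -0.43, both at 6 days, are filled, and their intervals lie outside the band.

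*Ulk1*, the kinase that starts autophagosome formation (chromosome 5 from 110784488 to 110810097 on the minus strand, GRCm38), was lower in DOX than in DMSO at 3 days without passing the test. Its level was 58.3, 63.8, 66.6 and 69.4 CPM in replicates 1 to 4 of DMSO and 55.5, 47.3, 45.6 and 46.6 CPM in DOX. The groups did not overlap, and replicate 1 of DOX lay nearest to the DMSO libraries. This was a log2 fold change of -0.40 ± 0.08 (SE), with an adjusted p of 0.0696 by edgeR's glmTreat. Without replicate 1 of DOX it was -0.47, and the adjusted p was 0.00792. Leaving out replicate 1 of DMSO gave -0.45 and an adjusted p of 0.0304 by the same test. With counts corrected for transcript length, of which the median over the annotated *Ulk1* transcripts is 4397 bases, and for GC content, the log2 fold change at 3 days was -0.20 with an adjusted p of 1. At 6 days the groups overlapped, from 53.7 to 64.4 CPM in DMSO and from 49.4 to 59.2 CPM in DOX, and the log2 fold change was -0.11 ± 0.07.

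The paralogous kinase gene *Ulk2* was higher at 6 days, from 12.8 to 16.1 CPM in DMSO and from 19.7 to 23.5 CPM in DOX. Its log2 fold change of 0.56 ± 0.08 passed glmTreat in edgeR with an adjusted p of 0.00156. The TPM ratio of *Ulk1* to *Ulk2* was 5.40 ± 0.519 (SD, n = 4) in DMSO and 3.35 ± 0.110 in DOX at 3 days, and 5.31 ± 0.726 and 2.97 ± 0.227 at 6 days. The ranges of this ratio, 4.71 to 6.34 in DMSO and 2.79 to 3.27 in DOX at 6 days, did not overlap.

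*Pink1*, the kinase that accumulates on damaged mitochondria (chromosome 4 from 138313409 to 138326307, minus strand), did not pass the test at either time. At 3 days it ranged from 14.4 to 16.4 CPM in DMSO and from 15.1 to 16.2 CPM in DOX, and the log2 fold change of 0.03 ± 0.08 had a 95% interval from -0.13 to 0.18. At 6 days its level was 17.0, 15.9, 15.4 and 15.6 CPM in DMSO and 19.6, 17.6, 20.1 and 21.6 CPM in DOX. Each DOX library was above each DMSO library at this time. The log2 fold change at 6 days was 0.30 ± 0.07, with an adjusted p of 0.354 by glmTreat and of 0.00171 without the fold threshold (edgeR).

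**Figure D2:**
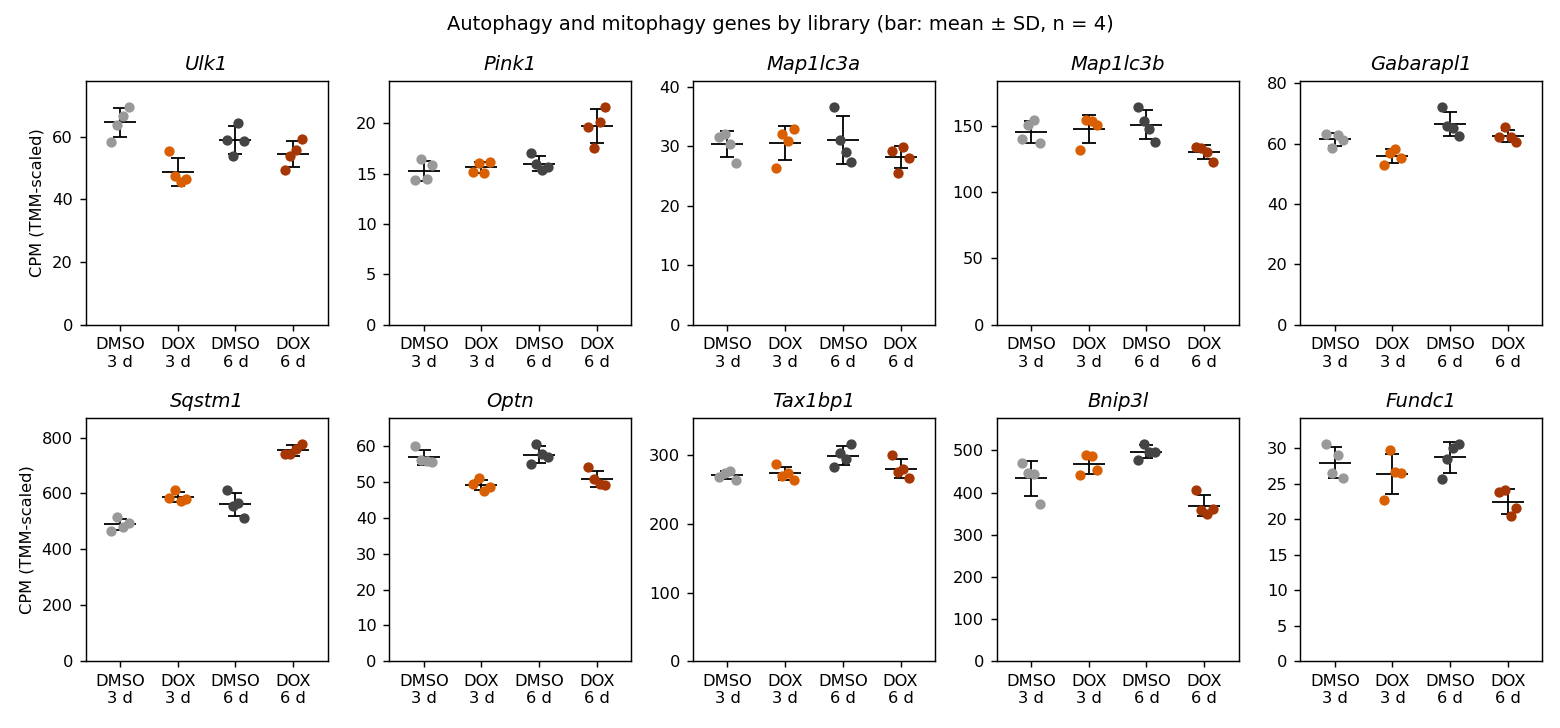
TMM-scaled CPM (y axes, each from 0) of the 10 genes in the 4 groups (x axes), 1 point per library, with the mean ± SD of 4 libraries. The 4 DOX libraries at 6 days lie highest for *Sqstm1*, from 739 to 777 CPM, and 3 of them lie below every other library for *Bnip3l*.

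Among the members of the LC3 and GABARAP families, which are coupled to lipid on the autophagosome, none of *Map1lc3a*, *Map1lc3b* and *Gabarapl1* passed the test at either time. *Map1lc3b* (chromosome 8 from 121590361 to 121598760, plus strand) had 140, 150, 155 and 137 CPM in DMSO and 132, 154, 153 and 151 CPM in DOX at 3 days. Replicate 1 of DOX was the lowest of these 8 libraries. Its log2 fold change at 3 days was 0.02 ± 0.06, and 0.07 without that library. At 6 days *Map1lc3b* had 164, 153, 148 and 138 CPM in DMSO and 134, 133, 130 and 122 CPM in DOX. The groups did not overlap, and the log2 fold change of -0.21 ± 0.06 had an adjusted p of 0.928 by glmTreat and 0.00695 without the fold threshold (edgeR). *Map1lc3b* overlaps *Gm20388* on its own strand and *Zcchc14* on the other, so its counts are uncertain.

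*Map1lc3a* (chromosome 2 from 155276297 to 155278073, plus strand) ranged from 27.3 to 32.1 CPM in DMSO and 26.3 to 32.9 CPM in DOX at 3 days, and from 27.4 to 36.6 CPM and 25.5 to 29.9 CPM at 6 days. The groups overlapped at both times, with log2 fold changes of 0.01 ± 0.09 (0.08 without replicate 1 of DOX) and -0.14 ± 0.09. *Gabarapl1* (chromosome 6 from 129533160 to 129542346, plus strand) was 58.6 to 63.1 CPM in DMSO and 53.0 to 58.2 CPM in DOX at 3 days. These ranges did not overlap, yet the 95% interval of its log2 fold change of -0.14, from -0.25 to -0.02, lay within 1.2-fold. The log2 fold change of *Gabarapl1* was -0.11 ± 0.06 without replicate 1 of DOX and -0.20 ± 0.05 with counts corrected for length and GC content. At 6 days its log2 fold change was -0.09 ± 0.05, with overlapping groups. *Gabarapl1* overlaps 2 annotated non-coding or unverified genes, and the strand setting of the counting is not given in the sources used here.

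The other members of these families were taken from the list of further pathway genes. *Gabarap*, not one of the 10 genes, gave 59.6% to 62.6% of the summed TPM of the family in DMSO and 60.5% ± 0.705 (SD, n = 4) in DOX at 3 days, and 59.7% ± 1.58 and 64.5% ± 0.766 at 6 days. *Gabarapl2* fell at 6 days, from 123 to 136 CPM in DMSO to 79.5 to 96.7 CPM in DOX, with a log2 fold change of -0.57 ± 0.08 and an adjusted p of 0.000814 (edgeR's glmTreat). Its share of the family went from 16.1% ± 0.639 to 11.5% ± 0.351. The mean share of *Map1lc3b* was between 12.1% and 13.7% in the 4 groups.

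**Figure D3:**
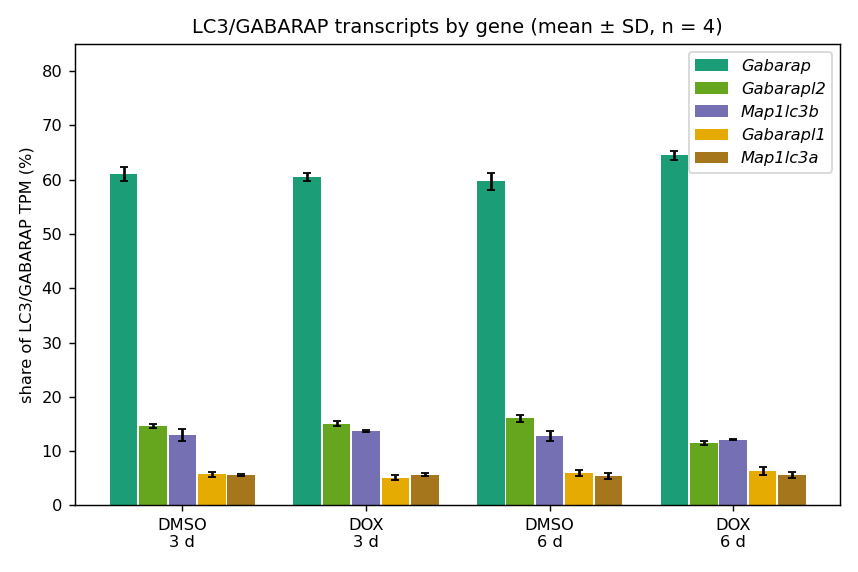
Share of each gene in the summed TPM of *Gabarap*, *Gabarapl2*, *Map1lc3b*, *Gabarapl1* and *Map1lc3a* (y axis, percent) in the 4 groups (x axis), as mean ± SD of 4 libraries. *Gabarap* gives the largest share in each group, and the bar of *Gabarapl2* is lowest in DOX at 6 days, at 11.5%.

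*Sqstm1*, which encodes the receptor p62 that binds ubiquitin and LC3, rose with 6 days of DOX. Its RefSeq promoter is shown because it is the gene of the 10 that was called higher, from chr11:50210801-50211070 of GRCm38.p6, read 5′ to 3′ on the minus strand. Capitals mark the first 20 bases from the RefSeq start, and the 250 bases before it are in lower case.
Sqstm1: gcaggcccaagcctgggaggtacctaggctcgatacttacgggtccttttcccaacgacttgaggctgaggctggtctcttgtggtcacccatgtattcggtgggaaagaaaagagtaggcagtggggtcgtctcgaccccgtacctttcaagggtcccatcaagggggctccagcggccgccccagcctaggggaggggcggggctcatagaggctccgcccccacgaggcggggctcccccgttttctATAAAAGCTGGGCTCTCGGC

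RefSeq promoters, from 250 bases before to 50 after the start, were at hand for 8 of the 10 genes, in 9 windows, and were searched on both strands. The antioxidant response core TGACNNNGC matched in *Map1lc3b* (TGACTCGGC, 5 bases after the start) and in *Tax1bp1* (TGACGAAGC, 205 bases before it), and 12.4% of 32851 promoters hold it. The E-box CACGTG, the core TGATGNAA of CEBP-ATF sites and the FOXO core GTAAACA, which occur in 7.15%, 3.97% and 3.65% of these promoters, matched in none of the 9 windows.

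At 3 days *Sqstm1* (chromosome 11 from 50199366 to 50210827, minus strand) had 466, 514, 481 and 496 CPM in DMSO and 582, 612, 574 and 582 CPM in DOX. All DOX libraries were above all DMSO libraries. The log2 fold change was 0.26 ± 0.06 with an adjusted p of 0.656 by glmTreat, and 0.27 with an adjusted p of 0.544 without replicate 1 of DOX (edgeR). At 6 days it had 611, 557, 567 and 512 CPM in DMSO and 739, 739, 760 and 777 CPM in DOX. The groups did not overlap, and the DOX libraries lay close together. The log2 fold change of 0.42 ± 0.06, a 1.34-fold rise with a 95% interval from 1.23 to 1.46, had an adjusted p of 0.00967 (edgeR's glmTreat).

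*Sqstm1* was 369 ± 26.3 TPM in DMSO and 473 ± 31.9 TPM in DOX at 6 days (SD, n = 4). On log2(TPM + 1) the fold change was 0.36, and limma's treat did not call it, with an adjusted p of 0.595. The effect at 6 days exceeded that at 3 days by 0.16 ± 0.09 with an adjusted p of 0.200 (edgeR's glmQLFTest), which does not pass the limit. *Sqstm1* overlaps *Mrnip* on the opposite strand and is uncertain to that extent.

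*Optn*, a receptor for ubiquitin on damaged mitochondria (chromosome 2 from 5020642 to 5064051, minus strand), was 55.4 to 60.0 CPM in DMSO and 47.5 to 51.1 CPM in DOX at 3 days. It was 55.0 to 60.5 CPM and 49.2 to 54.0 CPM at 6 days. The groups did not overlap at either time. The log2 fold changes of -0.21 ± 0.05 and -0.18 ± 0.05 had an adjusted p of 1 each by glmTreat, and 0.00327 and 0.00781 without the fold threshold (edgeR). *Optn* overlaps the antisense gene *4930551O13Rik*.

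*Tax1bp1*, a further ubiquitin-binding receptor (chromosome 6 from 52713729 to 52766780, plus strand), showed overlapping groups at both times. It ranged from 264 to 277 CPM in DMSO and 264 to 287 CPM in DOX at 3 days, and from 283 to 317 CPM and 266 to 300 CPM at 6 days. Its log2 fold changes were 0.01, with a 95% interval from -0.09 to 0.12, and -0.09, with an interval from -0.20 to 0.01, both within 1.2-fold.

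*Bnip3l*, the receptor NIX of the outer mitochondrial membrane (chromosome 14 from 66985239 to 67008877, minus strand), fell with 6 days of DOX. At 3 days it had 471, 445, 444 and 374 CPM in DMSO and 443, 490, 486 and 454 CPM in DOX. The groups overlapped, with replicate 4 of DMSO lowest. Its log2 fold change was 0.11 ± 0.07, and its 95% interval from -0.03 to 0.25 lay within 1.2-fold. Without replicate 1 of DOX its log2 fold change was 0.14 ± 0.07, and with counts corrected for length and GC content 0.18 ± 0.06. At 6 days it had 478, 515, 497 and 497 CPM in DMSO and 405, 359, 349 and 362 CPM in DOX. The groups did not overlap, and replicate 1 of DOX was nearest to DMSO. The log2 fold change of -0.43 ± 0.07 had an adjusted p of 0.0166 (edgeR's glmTreat).

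The call for *Bnip3l* at 6 days was close to the limit. It was lost in DESeq2 (adjusted p = 0.0716), without the filter on low counts (0.0854), with counts corrected for length and GC content (log2 fold change -0.34, adjusted p = 0.126) and without replicate 3 of DOX at 6 days (-0.40, adjusted p = 0.0542). On log2(TPM + 1) it was -0.47, and limma's treat called it with an adjusted p of 0.00812. The pseudogene *Bnip3l-ps* could share reads with this gene.

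*Bnip3l* was also the member whose DOX effect differed between the times, where the background was 17.0% of all tested genes. The effect at 6 days minus that at 3 days was -0.54 ± 0.10 on the log2 scale, with an adjusted p of 0.00143 by edgeR's glmQLFTest, and -0.57 with an adjusted p of 0.000306 without replicate 1 of DOX at 3 days. *Ulk1* at 0.29 (adjusted p = 0.0593), *Map1lc3b* at -0.24 (0.0700) and *Pink1* at 0.27 (0.0748) did not pass the same test. With a fold threshold of 1.2 on the difference for *Bnip3l* the adjusted p was 0.0607 (glmTreat). Between 3 and 6 days *Bnip3l* changed by 0.20 ± 0.07 in vehicle and by -0.34 ± 0.07 with DOX. Neither change was called by glmTreat, and the groups did not overlap in either case. By glmQLFTest, which has no fold threshold, 4 of the 10 genes passed without replicate 1 of DOX at 3 days, *Bnip3l*, *Ulk1*, *Map1lc3b* and *Fundc1*, and edgeR called 3787 genes in place of 2252. Leaving out replicate 1 of DMSO at 3 days, replicate 1, 3 or 4 of DMSO at 6 days, or replicate 1 or 2 of DOX at 6 days gave 2 of the 10 genes, *Bnip3l* and 1 of *Ulk1*, *Map1lc3b* and *Pink1*. With counts corrected for length and GC content, *Ulk1* was at 0.04 (adjusted p = 0.783, glmQLFTest) and *Fundc1* at -0.01 (0.959). After this correction *Bnip3l* at -0.53 (0.000569) and *Map1lc3b* at -0.22 (0.0319) passed the same test. The TPM ratio of *Sqstm1* to *Bnip3l* was 0.775 ± 0.0873 in DMSO and 0.811 ± 0.0450 in DOX at 3 days, and 0.782 ± 0.0839 and 1.39 ± 0.147 at 6 days (SD, n = 4). Its values at 6 days, 0.706 to 0.896 in DMSO and 1.18 to 1.53 in DOX, did not overlap.

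*Bnip3*, the paralogue of *Bnip3l*, was looked at after its values were seen. Its log2 fold change at 6 days was -0.36 ± 0.08, with an adjusted p of 0.148 by edgeR's glmTreat, and its DOX effect differed between the times by -0.66 ± 0.12 (adjusted p = 0.00121, glmQLFTest). The TPM ratio of *Bnip3l* to *Bnip3* was 0.636 ± 0.0194, 0.594 ± 0.0263, 0.645 ± 0.0297 and 0.621 ± 0.0324 in DMSO and DOX at 3 days and in DMSO and DOX at 6 days.

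*Fundc1*, a receptor of the outer mitochondrial membrane linked to hypoxia (chromosome X from 17556564 to 17572325, minus strand), had 30.6, 26.5, 29.0 and 25.7 CPM in DMSO and 22.7, 29.7, 26.6 and 26.4 CPM in DOX at 3 days. These groups overlapped, and the log2 fold change was -0.08 ± 0.08, and -0.01 without replicate 1 of DOX. At 6 days it had 25.7, 28.4, 30.0 and 30.6 CPM in DMSO and 23.8, 24.1, 20.5 and 21.6 CPM in DOX. Each DOX library was below each DMSO library. Its log2 fold change of -0.35 ± 0.08 had an adjusted p of 0.180 by glmTreat, and 0.0014 without the fold threshold (edgeR). On log2(TPM + 0.1) it was -0.54, and limma's treat called it with an adjusted p of 0.0434, while on log2(TPM + 1) it did not, with an adjusted p of 0.0619. With counts corrected for length and GC content the log2 fold change of *Fundc1* was -0.20 at 3 days and -0.21 at 6 days, and edgeR's glmTreat called neither. DESeq2 did not call *Fundc1* at 6 days either.

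DOX at 6 days was also compared with DOX at 3 days. edgeR's glmTreat called 0 of the 10 genes, where the background was 3.94%. *Sqstm1* at 0.36 ± 0.06 and *Bnip3l* at -0.34 ± 0.07 had an unadjusted p under 0.05, as did 1656 of the 13234 tested genes. DESeq2 and limma on log2(TPM + 1) called 0 as well. Without the fold threshold 6 of the 10 passed, against 30.2% of all tested genes, and the groups did not overlap for 4, against 25.4%.

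The wider pathway was described by 92 further genes, all of them tested. At 3 days 4 rose and 2 fell, and at 6 days 7 rose and 4 fell, where 5.30% of all tested genes rose and 7.22% fell at 3 days, and 10.0% rose and 11.6% fell at 6 days (edgeR's glmTreat). Without replicate 1 of DOX at 3 days, 8 of the 92 were called at 3 days, against 2295 of the 13234 tested genes. *Stbd1*, which encodes a glycogen-binding partner of GABARAP proteins, rose at both times, from 82.8 to 89.4 CPM in DMSO to 164 to 176 CPM in DOX at 3 days (log2 fold change 0.98 ± 0.05) and by 0.91 ± 0.05 at 6 days. *Fbxl4*, for a mitochondrial F-box protein known to limit BNIP3 and NIX, rose by 0.47 ± 0.07 and 0.59 ± 0.07. *Deptor*, for an inhibitor of the mTOR kinase, fell by 0.69 at 3 days and by 0.54 at 6 days on the log2 scale.

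Among transcription factors of the pathway, *Atf4*, the effector of the integrated stress response, rose by 0.60 ± 0.06 and *Foxo1* fell by 0.51 at 3 days. At 6 days 0 of the 8 genes on this list were called (edgeR), with log2 fold changes from -0.39 to 0.55. The difference of the DOX effect between the times was called for neither *Atf4* nor *Foxo1* (glmQLFTest). From 3 to 6 days *Atf4* changed by -0.04 ± 0.06 with DOX and by 0.20 ± 0.06 in vehicle. *Foxo1* changed by -0.07 ± 0.08 with DOX and by -0.19 ± 0.08 in vehicle. An unadjusted p under 0.05 at 6 days was held by 3 of the 8, against 3771 of the 13234 tested genes. *Sesn2*, a stress-induced inhibitor of mTORC1 signalling, rose by 0.73 ± 0.09 at 6 days, and *Vps39*, a subunit of the HOPS complex that joins autophagosomes to lysosomes, by 0.40 ± 0.07. On the lists of the class III PI3-kinase complex (8 genes), of lipid supply and WIPI proteins (9 genes) and of the conjugation enzymes (10 genes), glmTreat called 0 genes at both times. At an unadjusted p under 0.05 these lists held 0, 1 and 2 genes at 3 days and 1, 2 and 1 at 6 days. Of the 13234 tested genes 2867 had such a p at 3 days and 3771 at 6 days.

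**Figure D4:**
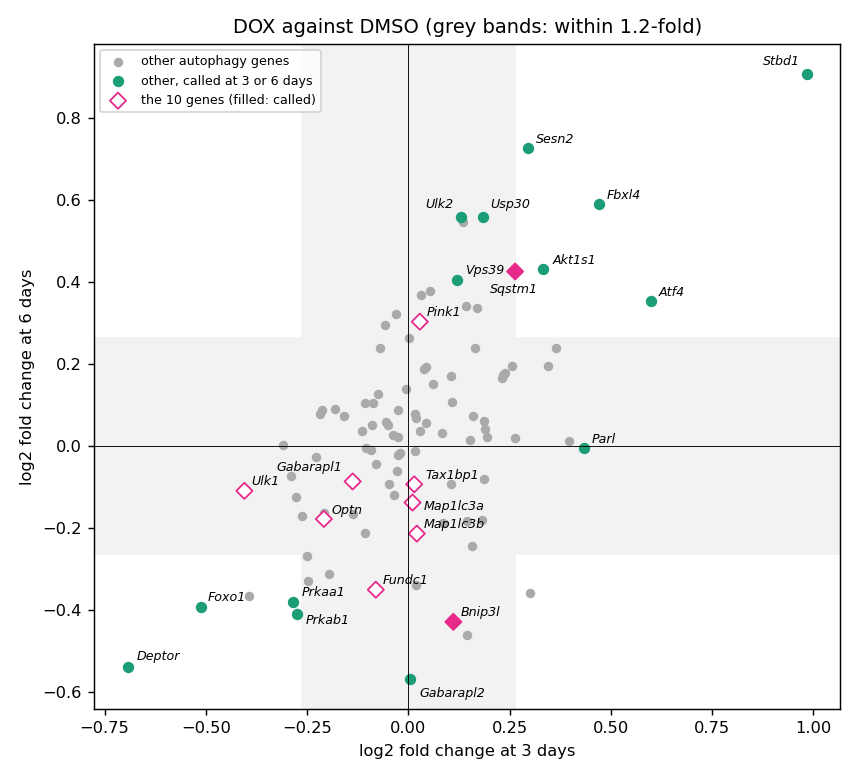
Log2 fold change of DOX against DMSO (edgeR) at 3 days (x axis) and 6 days (y axis) for the 10 genes (diamonds, filled where called) and 92 further autophagy genes (grey, green where called at either time). Grey bands span 1.2-fold in either direction. *Stbd1* lies farthest to the upper right, at 0.98 and 0.91, *Bnip3l* and *Gabarapl2* lie in the lower centre, at 0.11 and 0.00 at 3 days, and labelled genes that the text does not name were labelled after their values were seen.

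For each of the 2 members called at 6 days, the genes with the most alike pattern were sought by Pearson's r of log2 CPM over the 16 libraries among 13224 genes. These r are descriptions, since the libraries share 4 groups. For *Sqstm1* they were *Spout1* (r = 0.981), *Tbl3* (0.981) and *Pes1* (0.980), of which the last 2 act in ribosome assembly, and for *Bnip3l* the glycolytic gene *Pgk1* (0.955), *Gabarapl2* (0.938) and the chromatin gene *Hmgb2* (0.937). *Pgk1* had a log2 fold change of 0.06 at 3 days and -0.46 ± 0.08 at 6 days.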

How the data were processed

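The 10 genes and the lists of further genes and markers were chosen with earlier results of these data known. Per the labels and the study's methods, poly(A) RNA was sequenced as paired reads of a directional library, aligned to GRCm38p6 with STAR 2.6.0c and quantified with Salmon. The authors deposited estimated counts, which are not normalized, and TPM per gene, which are corrected for transcript length. Whether Salmon used strand is not given in the sources used here.

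Estimated counts were rounded. The 13234 genes that reached 1 CPM in 4 or more of the 16 libraries were scaled by TMM and fitted with 1 mean per group in edgeR 4.0.16 (R 4.3.3, robust quasi-likelihood). DOX was compared with DMSO, and times with each other, by glmTreat at a fold threshold of 1.2, and the difference of the DOX effects by glmQLFTest, two-sided, with Benjamini-Hochberg adjustment over all tested genes at 0.05. The SE is the log2 fold change over the root of F. The alternatives were DESeq2 1.42.0, limma 3.58.1 on log2(TPM + 1) and log2(TPM + 0.1), other filters and scalings, offsets that remove trends with length and GC content, and leaving out each library. The code was tested on simulated data. Gene positions and overlaps are from GENCODE M21, and promoters from RefSeq (GRCm38.p6). Besides the 10 genes, the text names on each list of further pathway genes the called genes that rose and fell most, and says where such a gene was chosen otherwise. Markers were named after their values were seen. Marker lists cover the collecting duct, epithelium, fibroblasts and macrophages. Counts limit precision by counting error only, and the 3-count floor was at most 0.177 CPM.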

Additional observations from a re-analysis of the deposited data

Results flagged for a closer look

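The level of *Map1lc3b* in replicate 1 of DOX at 3 days, 132 CPM, lay far from the other 3 libraries of the group, which were between 151 and 154 CPM. *Optn* in replicate 1 of DMSO at 3 days, 60.0 CPM, lay far from 55.4 to 56.1 CPM in the others. These were 2 of 40 groups examined by Dixon's criterion, of which chance flags about 1 in 20. The DOX effect on *Bnip3l* differed between 6 and 3 days by -0.54 on the log2 scale (adjusted p = 0.00143, edgeR's glmQLFTest).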

How the results depend on the processing

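Without a fold threshold edgeR called 4 of the 10 genes at 3 days, 6 at 6 days and 6 between the times in DOX. Of the 92 further genes it called 37 and 41 at 3 and 6 days. Of all genes it called 5982 and 6702, 62 between the times in DMSO and 4000 between those in DOX. With a threshold of 1.2 on the difference of the DOX effects, 0 of the 10 and 183 of all genes passed. DESeq2 called 1 of the 10 and 7 further genes at 6 days, and 2 of the 10 for the difference. Of all genes it called 1019 at 3 days, 1962 at 6 days, 2568 for the difference and 243 between the times in DOX. With log2(TPM + 1) limma called 1 of the 10 at 6 days, 1 and 4 further genes at 3 and 6 days, and 701, 1307, 659 and 86 genes at 3 days, at 6 days, for the difference and between the times in DOX. With log2(TPM + 0.1) it called 2 of the 10 at 6 days, *Bnip3l* and *Fundc1* in place of *Bnip3l* and *Sqstm1*, and 5 further genes at 6 days and 909, 1527, 631 and 111 genes. On the first TPM scale the median of all genes shifted to -0.15 at 3 days and -0.05 at 6 days. Without a filter 1 of the 10 was called at 6 days and 2 for the difference, against 2912 and 2237 of 34114 genes. Between the times in DMSO 6 of all genes were called without a filter. The correction for length and GC content gave 1 of the 10 at 6 days and 2 for the difference, alone and with the replicate block. Of all genes it gave 3083 and 1996 alone, and 3041 and 1804 with the block. The cause of these differences was not tested.

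Leaving out single libraries gave 0 to 1 of the 10 at 3 days, 1 to 2 at 6 days, 1 to 4 for the difference and 0 to 0 in either comparison of times. It gave 5 to 8 and 8 to 15 further genes at 3 and 6 days, and 1366 to 2295, 2545 to 3064, 1369 to 3787, 0 to 0 and 325 to 909 of all genes at 3 days, at 6 days, for the difference, between times in DMSO and between times in DOX. The highest values at 3 days, for the difference and in DOX came without replicate 1 of DOX at 3 days. No called value of a member reversed.

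Same-numbered libraries did not deviate together, with mean correlations of -0.0955 and -0.121 between DMSO and DOX at 3 and 6 days, so the numbers were not treated as pairs. With the replicate block 0, 2 and 1 of the 10 passed at 3 days, at 6 days and for the difference, and 1570, 2767 and 1768 of all genes.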
